A study of Eucalyptus grandis
Pisolithus microcarpus and Eucalyptus grandis with 23 samples.

Results

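The root transcriptome of Eucalyptus grandis seedlings colonised by strain SI-12 of the ectomycorrhizal fungus Pisolithus microcarpus was compared with that of seedlings colonised by strain SI-9, both kept at 400 ppm CO2. The comparison holds 6 of the 23 libraries of the series, 3 SI-12 libraries and 3 SI-9 libraries, and was made on the total gene reads of every gene. It was repeated without SI-9 library 2, which had been set aside because its values looked mixed with those of SI-12 roots. Month-old seedlings were grown singly in Petri dishes on a glucose-poor medium with a square of mycelium laid on the root, and roots were frozen about a month later. Control roots, used here as a reference level, were grown the same way without fungus, with 6 libraries at 400 ppm and 5 at 650 ppm, and SI-9 and SI-12 roots at 650 ppm had 3 libraries each.

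An ectomycorrhiza forms when hyphae wrap a fine root in a sheath and grow between its outer cells, where the fungus passes mineral nutrients to the plant in return for sugars. Strains of 1 fungal species can differ in how far they colonise the same host and in the host genes that respond. The reads counted here were assigned to Eucalyptus genes, so they describe the plant side of the contact. The roots were sampled in bulk, so fewer cells of a type and less RNA per cell cannot be told apart.

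Gene reads ran from 4497662 to 13867134 in the SI-9 libraries and from 9427857 to 14823361 in the SI-12 libraries. In a single one of these libraries 3 reads correspond to 0.202 to 0.667 CPM, the read count scaled to a common library size, with the highest value in SI-9 library 1, and lower levels rest on fewer reads. The labels call the libraries of a group biological replicates, but beyond counting noise the coefficient of variation between SI-12 libraries was only 0.117 to 0.157, and between SI-9 libraries 1 and 3 it was 0.0959. SI-9 library 2 differed from libraries 1 and 3 by 0.242 and 0.28 and from the SI-12 libraries by 0.313 to 0.321. SI-9 libraries 1 and 3 stood 0.516 to 0.568 away from the SI-12 libraries. Every p-value given here therefore reflects library spread, which inside such close sets may be technical. Library numbers in the deposited names run from 1 to 12 for all SI-9 libraries and from 13 to 24 for all SI-12 libraries, so strain and number series cannot be told apart in the direct comparison. Control roots at 400 ppm have 3 libraries in each series, which gives a comparison of each strain with controls of its own series. The direct tests pool the spread over all groups with a single mean for these controls, whose series stood 0.444 to 0.461 apart. The within-series test gives each control series its own mean, so its p-values rest on a different spread.

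None of the 36376 gene IDs is paired with a name in the files, and 0 matched the reference gene table, so genes are given by ID and no role or pathway is assigned. For the same reason the labelled root tissue could not be checked against marker genes.

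The first question was how many plant genes differ between roots that host the strains, and in which direction. Of 27386 genes tested across all libraries with edgeR's quasi-likelihood test, 7668 were called at an adjusted p of at most 0.05, which is 28% of the genes tested. In SI-12 roots 3454 of them (12.6%) were higher and 4214 (15.4%) lower. The median log2 change over all genes tested was 0.01, a value that the scaling of the libraries holds near 0. Of the called genes, 7273 had no overlap between the 3 SI-12 and the 3 SI-9 libraries, as had 45.8% of all genes tested.

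The lower genes had the larger changes. A called gene that was higher in SI-12 roots had a median log2 change of 0.88, a 1.84-fold difference, and a called gene that was lower had a median of -1.15, a 2.22-fold difference. At the far end, the lowest 5% of the lower genes lay below -5.80, whereas only the highest 5% of the higher genes lay above 2.71. Among called genes with a log2 change of at least 3 in size, 119 were higher and 618 lower. With at least 5 the counts were 22 and 284.

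This asymmetry was not present without SI-9 library 2. In the repeat, 28203 genes were tested and 8950 (31.7%) were called, 4391 higher (15.6%) and 4559 lower (16.2%) in SI-12 roots. The median log2 changes were then 1.22 for higher and -1.23 for lower genes, and the highest 5% of the higher genes lay above 7.11. With a log2 change of at least 5 in size, 427 genes were higher and 336 lower. Of the 7668 genes called with all 6 libraries, 7249 were called in the same direction in the repeat. A test against a 2-fold minimum called 71 higher and 782 lower genes with all 6 libraries, and 958 higher and 1108 lower genes without library 2.

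**Figure D1:**
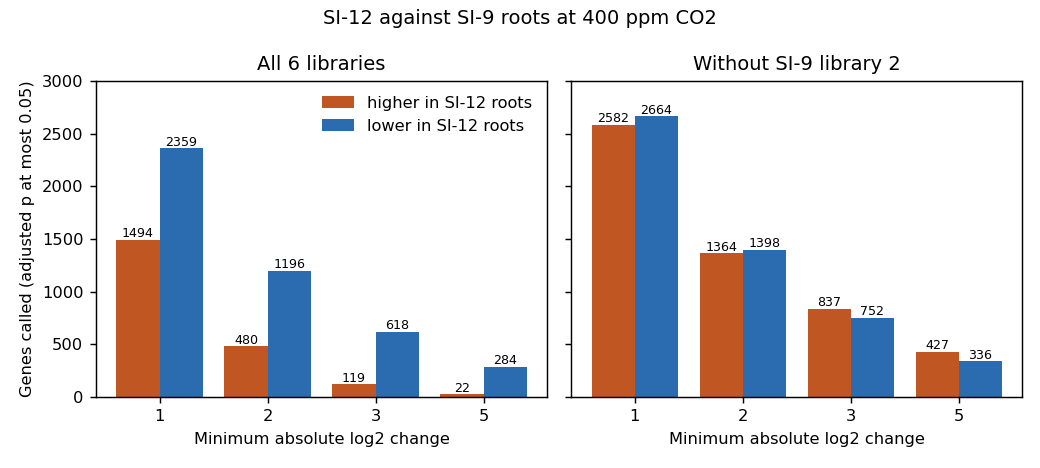
Number of genes called in SI-12 against SI-9 roots at 400 ppm (vertical axis) by the minimum absolute log2 change (horizontal axis), with orange bars for genes higher and blue bars for genes lower in SI-12 roots. With all 6 libraries 22 higher and 284 lower genes reach a log2 change of 5, and without SI-9 library 2 the counts are 427 and 336.

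Strong on-off differences showed the same dependence. Without library 2, 151 genes had at least 1 CPM in each SI-12 library and no reads in SI-9 libraries 1 and 3, and 70 genes had the reverse pattern, at 1 CPM or more in both of these SI-9 libraries and without a read in SI-12 roots. With all 3 SI-9 libraries only 1 gene was left of the first kind and 43 of the second. Library 2 had reads of all but 1 of the 151 genes and of all but 2 of the 70.

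The place of library 2 was therefore measured gene by gene. For each of 4933 genes called without library 2, with a log2 change of at least 1 in size and at least 1 CPM in the higher group, its CPM was placed on a linear scale where 0 is the mean of SI-9 libraries 1 and 3 and 1 is the mean of the SI-12 libraries. Library 2 was not used to call these genes. It had been set aside because these counts looked mixed, so a place between the strains in part restates that choice and is a description. Its median position was 0.460, with an interquartile range of 0.352 to 0.578, so it stood nearly midway. The median was 0.440 for the 2433 genes higher in SI-12 roots and 0.480 for the 2500 genes lower there.

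The position hardly depended on the size of the change. For genes higher in SI-12 roots the median position of library 2 was 0.444 where the log2 change lay between 1 and 2, 0.439 between 2 and 3, 0.439 between 3 and 5, and 0.432 at 5 or more. For genes lower in SI-12 roots the medians were 0.474, 0.483, 0.476 and 0.501. Genes with reads in 1 strain only gave close values. As a share of the level in SI-12 roots, the 151 genes read only there had a median of 0.428 in library 2. As a share of the level in SI-9 libraries 1 and 3, the 70 genes read only in those had a median of 0.506.

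The even place holds on the linear scale. On a log2 scale with 0.25 CPM added, the median was 0.626 for genes higher and 0.308 for genes lower in SI-12 roots, so in both directions library 2 was nearer to the strain with more of the transcript.

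**Figure D2:**
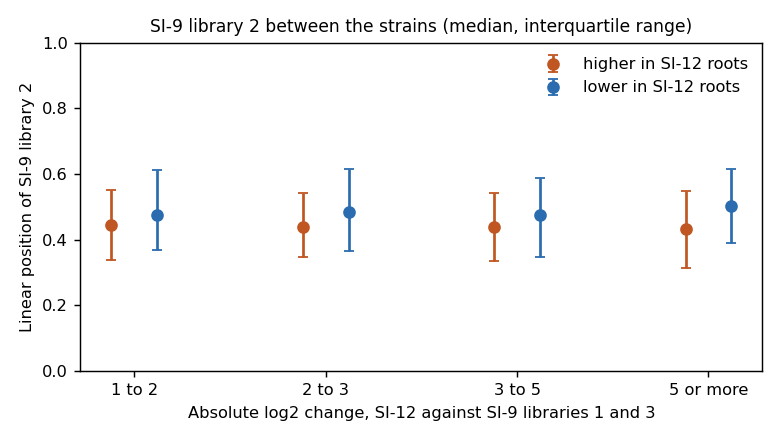
Linear position of SI-9 library 2 (vertical axis, 0 at SI-9 libraries 1 and 3 and 1 at SI-12) against the absolute log2 change between SI-12 roots and SI-9 libraries 1 and 3 (horizontal axis); points are medians over genes and bars interquartile ranges. The medians lie between 0.432 and 0.501 in all 8 classes of size and direction.

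No other library of the series had such a narrow place between the strains. The control libraries at 400 ppm also had medians between 0.403 and 0.522, but their interquartile ranges began at 0.069 to 0.113 and ended at 0.751 to 0.875. Single genes in control roots thus sat anywhere from the SI-9 to the SI-12 level. The control medians differed by number series. Libraries 1 to 3, of the series of SI-9, had 0.403 to 0.415. Libraries 4 to 6, of the series of SI-12, had 0.517 to 0.522, further toward SI-12. These medians pool unlike places by direction. For genes higher in SI-12 roots they were 0.255 to 0.266 in libraries 1 to 3 and 0.298 to 0.305 in libraries 4 to 6, all nearer to SI-9. For genes lower in SI-12 roots they were 0.511 to 0.518 and 0.688 to 0.697, all past the middle toward SI-12. These controls differed between the series in 7104 genes, 25.9% of those tested.

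**Figure D3:**
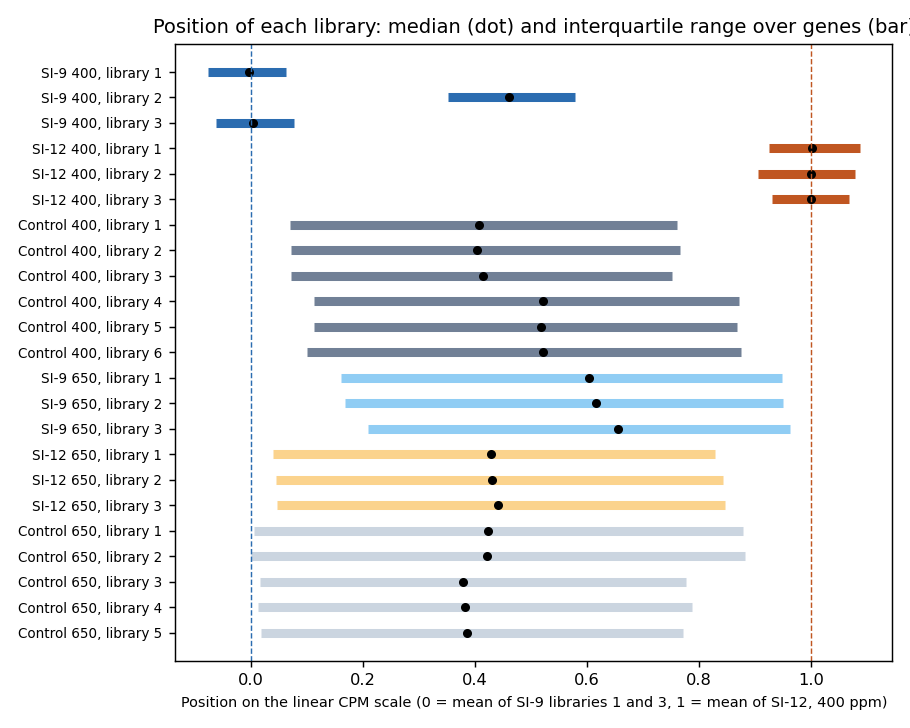
Position of each of the 23 libraries (rows) on the linear CPM scale between SI-9 libraries 1 and 3 (0) and SI-12 (1) at 400 ppm, over 4933 genes, with the median as a dot and the interquartile range as a bar. SI-9 library 2 has a median of 0.460 and a short bar, while the bars of control roots and of roots at 650 ppm span most of the distance.

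Each strain was then set against the controls of its own number series, and the differences were compared. This within-series comparison called 7551 genes, 27.6% of those tested. It holds the same 6 SI-9 and SI-12 libraries as the direct comparison and equals the direct change minus the change between controls, so agreement in sign is in large part built in and the shares that follow are a description. Of the 7668 genes called directly, 7436 (97%) had the same sign within series, and 4019 (52.4%) were also called within series in the same direction, while 3 were called in the opposite direction. The median size of the log2 change in the direction of the call went from 1.00 directly to 0.80 within series. With the number series added to the direct test as a block, 6612 genes were called, and 4811 of the 7668 kept call and direction.

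The share of called genes rose with expression. It was 11.1% for genes under a mean of 1 CPM over both groups, 24.4% from 1 to 10 CPM, 34.2% from 10 to 100 CPM and 42.3% at 100 CPM or more. Among called genes under 1 CPM 26.8% were higher in SI-12 roots, against 49.5% among those at 100 CPM or more. Without library 2 these shares were 48.3% and 47.7%.

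The direction of the calls varied with gene length, though not in steady steps. Among genes longer than 2081 bases, the longest 25%, 724 of 2144 called genes (33.8%) were higher in SI-12 roots. In the other length classes, divided at 936 and 1451 bases, the shares from short to long were 47.1%, 53% and 47.7%. The longest genes also had the lowest share without library 2, with 54.4%, 57.2%, 50.7% and 35.5% from short to long, and within series, with 46.6%, 48.9%, 47% and 40.1%. At 650 ppm they did not, with 52.7%, 45.5%, 38.9% and 42.8%. Between control libraries of the series at 400 ppm, the shares of called genes higher in libraries 4 to 6 were 56.2%, 56.8%, 52.4% and 48%, so the longest genes had the lowest share there without fungus as well. The part of gene length, or of RNA quality, in single calls was not tested.

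Called genes lay in all parts of the genome. In the naming of E. grandis genes the letter of an ID stands for a chromosome (A to K) or for scaffolds that were not placed (L). The share of tested genes that were called ran from 24.6% for letter L to 30.8% for letter A, and the share of these that were higher in SI-12 roots from 41.6% for letter K to 51.3% for letter A. Genes next to each other in the ID order often moved the same way. In 1396 pairs of adjacent genes, both called and both with at least 90% of reads unique to 1 gene, 818 pairs (58.6%) shared the direction, where the shares of the directions alone give 50.7%.

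Genes named below have at least 10 CPM in the higher group, no overlap between the groups and at least 90% unique reads. With all 6 libraries 4368 genes met these conditions, 2073 higher and 2295 lower in SI-12 roots. The largest rise was that of Eucgr.D01388.1, which had 15.3, 18.7 and 15.9 CPM in the SI-12 libraries and 0, 4.28 and 0.0728 CPM in SI-9 libraries 1, 2 and 3. Its log2 change was 3.42 (SE 0.80, adjusted p = 0.00329), and 8.11 without library 2 (SE 0.79). The value of 8.11 rests on 1 read in SI-9 libraries 1 and 3 together, under the floor of 3 counts used below, so its size is uncertain. All SI-12 libraries were high and SI-9 library 2 stood alone between the groups. Control roots had 0.0949 to 0.238 CPM at 400 ppm, and no library at 650 ppm exceeded 0.708 CPM, so the transcript was abundant in the SI-12 roots at 400 ppm and in no other group.

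Eucgr.L02630.1 followed the same pattern, with 26.3, 31.1 and 29.2 CPM in SI-12 roots and 0, 10.3 and 0 CPM in SI-9 libraries 1 to 3. The log2 change was 3.00 (SE 0.93, adjusted p = 0.0209), and the call was lost without SI-9 library 1 (adjusted p = 0.0725), SI-9 library 3 (0.0523) or SI-12 library 2 (0.0512). Without SI-9 library 2 SI-12 roots were at least 176-fold higher, taking 3 counts over both remaining SI-9 libraries as the floor (adjusted p = 6.99e-07). It was also low in control roots, at 0.0742 to 0.453 CPM at 400 ppm. Within series its log2 change was 3.83, with an SE of 1.63 and an adjusted p of 0.0844, no longer past the threshold.

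The largest falls were of genes that no SI-12 library at 400 ppm had reads of. The first, Eucgr.L00601.1, had 22.1, 14.8 and 33.4 CPM in SI-9 libraries 1 to 3 and was at least 280-fold lower where SI-12 was the partner (adjusted p = 0.000385), with 3 counts over the SI-12 libraries as the floor. All other groups held reads of it, and control roots at 400 ppm differed by series, with 1.55 to 2.54 CPM in libraries 1 to 3 and 18.7 to 25.7 CPM in libraries 4 to 6. The absence in SI-12 roots was thus set against controls of their own series that had the transcript. Within series the call was kept (adjusted p = 1.53e-11), with an SE of 0.70 against 2.06 in the direct test, which pools the control series.

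Eucgr.L03521.1 had 19.4, 10 and 14.6 CPM in SI-9 libraries 1 to 3 and, by the same floor, at least 175-fold less with SI-12 (adjusted p = 0.000273). Control libraries 4 to 6 had 0 to 0.223 CPM and libraries 1 to 3 had 2.01 to 2.99 CPM, so SI-9 roots lay above all controls at 400 ppm. Control roots at 650 ppm were higher still, at 26.6 to 43.2 CPM. At 650 ppm SI-9 roots had at most 0.0399 CPM and SI-12 roots at most 0.101 CPM. Within series the log2 change was -5.75, with an SE of 2.08 (adjusted p = 0.0461).

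The next genes were those with the largest difference in abundance, in length-scaled units (RPKM, computed from the scaled counts), without library 2. Of 5073 genes that met the conditions there, 2414 were higher and 2659 lower. Eucgr.B01584.1 had the largest difference of all. It stood at 16028 ± 2691 RPKM (SD, n = 2) in SI-9 libraries 1 and 3 and 2065 ± 479 RPKM (SD, n = 3) in SI-12 roots. In CPM it had 23461, 19151 and 29783 in SI-9 libraries 1 to 3 and 4103, 2552 and 3636 in SI-12 roots. Without library 2 its log2 change was -2.95 (SE 0.70, adjusted p = 0.00312). Roots without fungus at 400 ppm had 1635 to 2490 CPM, near the level of SI-12 roots, so SI-9 roots stood apart.

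Eucgr.L02071.1 fell as well, from 2181, 1517 and 2259 CPM in SI-9 libraries 1 to 3 to 476, 469 and 450 CPM in SI-12 roots. Its log2 change without library 2 was -2.25 (SE 0.13, adjusted p = 2.63e-10). Here control roots, at 1512 to 1782 CPM, lay nearer to SI-9 roots, and SI-12 roots stood apart. The within-series log2 change was -1.96.

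Among higher genes Eucgr.B02368.1 differed most in abundance, with 8633 ± 344 RPKM (SD, n = 3) in SI-12 roots and 5536 ± 141 RPKM (SD, n = 2) in SI-9 libraries 1 and 3. The log2 change was only 0.64, with an SE of 0.08 (adjusted p = 9.6e-06), and the transcript was abundant in every group. Its CPM were 7222, 7591 and 7019 in SI-12 roots and 4583, 6008 and 4751 in SI-9 libraries 1 to 3. The controls at 400 ppm lay between, at 5502 to 6440 CPM.

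Eucgr.F02872.1 had 2457, 2326 and 2457 CPM in SI-12 roots and 914, 1576 and 950 CPM in SI-9 libraries 1 to 3. Without library 2 the log2 change was 1.37 (SE 0.35, adjusted p = 0.00515), and leaving out SI-9 library 1 as well ended the call (adjusted p = 0.0511). With library 2 kept, the call was lost without SI-9 library 1 or 3 (adjusted p = 0.0789 each). Control roots had 2632 to 2748 CPM in libraries 1 to 3 and 1371 to 1449 CPM in libraries 4 to 6. Relative to controls of the own series SI-9 roots were low and SI-12 roots high, and the within-series log2 change was 2.01 with an SE of 0.34 (adjusted p = 0.000144).

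**Figure D4:**
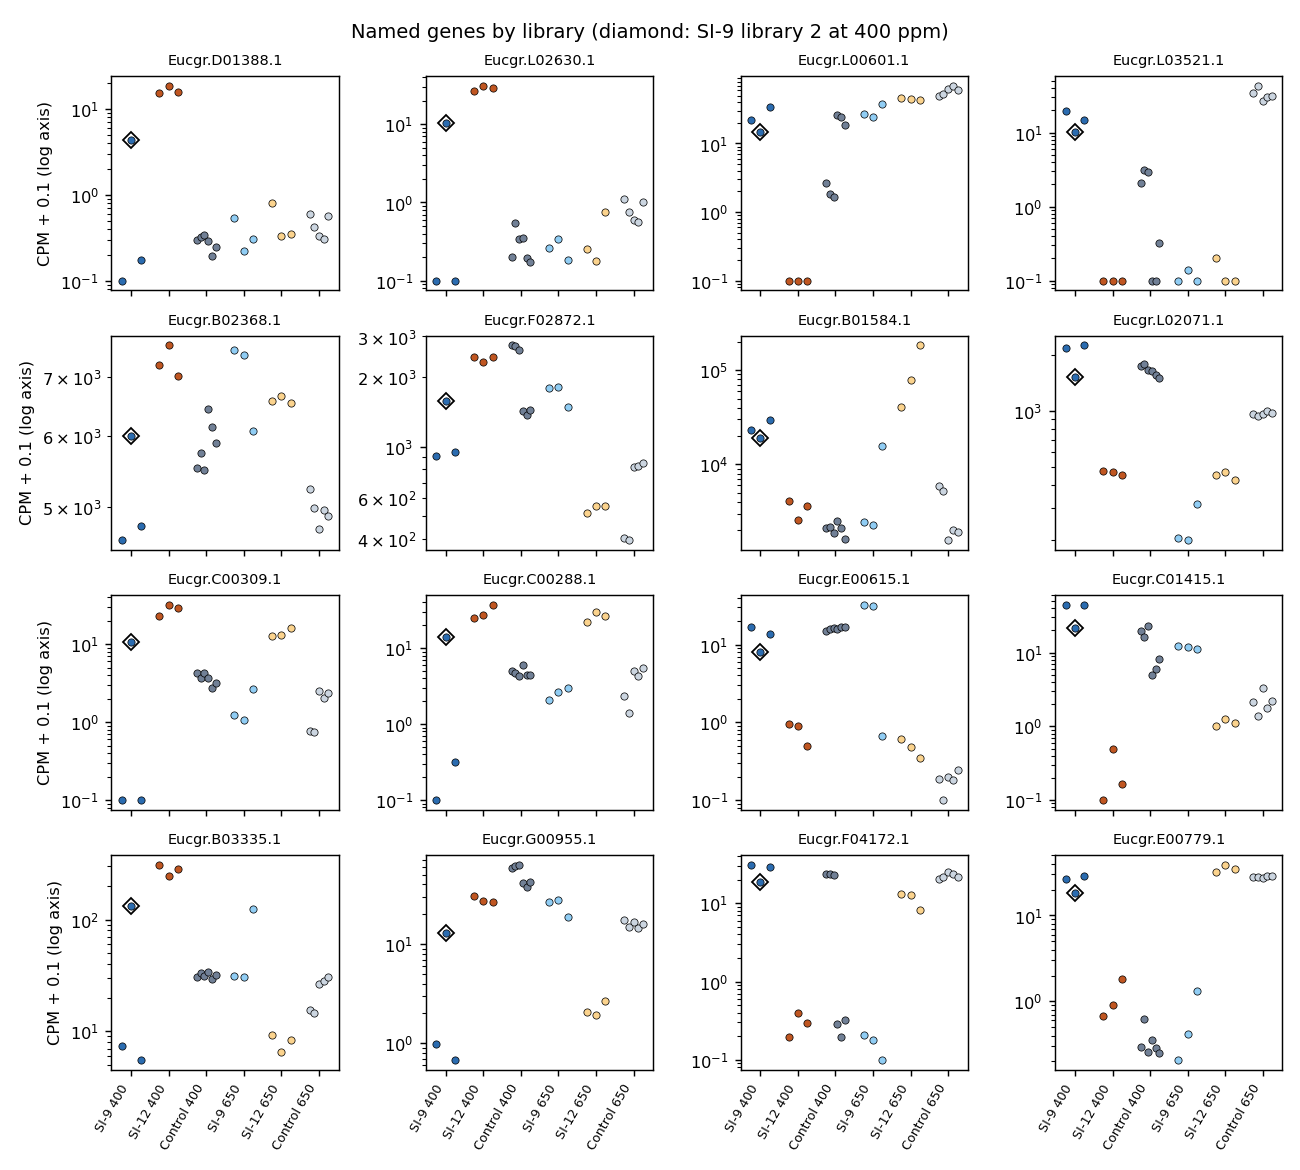
CPM of the 16 named genes, plus 0.1 and on a log axis, in each of the 23 libraries, grouped by strain and CO2 in ppm, with a diamond around SI-9 library 2 at 400 ppm. In the genes higher in SI-12 roots at 400 ppm the diamond lies between SI-9 libraries 1 and 3 and the SI-12 libraries, as for Eucgr.L02630.1 with 10.3 CPM against 0 and 26.3 to 31.1 CPM.

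The strain difference at 400 ppm was set beside that at 650 ppm, which shares no library with it. There 3981 genes (14.5%) passed the threshold, of which 1786 were higher (6.52%) and 2195 lower (8.02%) with SI-12. SI-9 library 3 at 650 ppm stood apart from SI-9 libraries 1 and 2, with coefficients of variation of 0.504 and 0.518. Without it 4507 genes were called, and 3053 of the 3981 kept their call and direction. Leaving out SI-9 library 1 or 2 at 650 ppm gave 2983 and 2940 calls. Leaving out SI-12 library 1, 2 or 3 at 650 ppm gave 2527, 2576 and 2614 calls. The counts by direction that follow include SI-9 library 3. Of the genes called at both CO2 levels, 447 kept their direction and 1214 reversed it. The genes in the same direction were 5.83% of the list at 400 ppm and 11.2% of that at 650 ppm. Those in opposite directions were 15.8% and 30.5%. Without library 2, 501 genes had the same direction and 1347 the opposite one. Across the 27386 genes, which are not independent replicates, the log2 changes at the CO2 levels had a correlation of -0.084. In both comparisons SI-9 libraries are of the first number series and SI-12 libraries of the second.

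The difference between the CO2 levels was tested directly as an interaction of strain and CO2. It was called for 7520 genes, 27.5% of those tested, and for 5058 (66%) of the genes called between strains at 400 ppm. The interaction includes the same 6 libraries at 400 ppm, so the higher share among genes called there is in large part built in. On the position scale used above, SI-9 roots at 650 ppm had medians of 0.603 to 0.656 and SI-12 roots at 650 ppm medians of 0.428 to 0.441. Over the genes that separate the strains at 400 ppm, SI-9 roots at 650 ppm therefore lay nearer to the SI-12 end than SI-12 roots at 650 ppm did. These medians also pool unlike places by direction. For genes higher in SI-12 roots they were 0.367 to 0.390 for SI-9 and 0.269 to 0.284 for SI-12, all nearer to the SI-9 end. For genes lower in SI-12 roots they were 0.776 to 0.825 and 0.595 to 0.619.

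**Figure D5:**
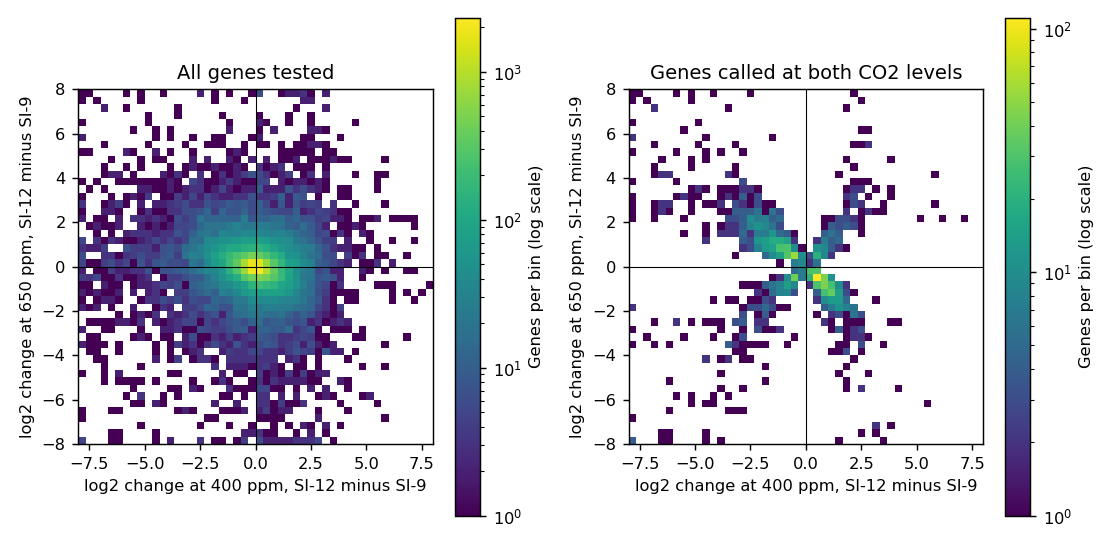
Log2 change of SI-12 against SI-9 roots at 650 ppm (vertical axis) against that at 400 ppm (horizontal axis), as genes per bin on a log colour scale, for all 27386 genes tested and for genes called at both CO2 levels; changes beyond 8 are drawn at the edge. Of the genes called at both levels, 447 lie in the quadrants of equal sign and 1214 in those of opposite sign.

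Of the genes that met the naming conditions at both CO2 levels in the same direction, 78 rose and 98 fell in SI-12 relative to SI-9 roots. Eucgr.C00309.1 and Eucgr.C00288.1 were the highest placed of the higher genes. Eucgr.C00309.1 had 22.6, 31.7 and 29.1 CPM in SI-12 roots and 0, 10.7 and 0 CPM in SI-9 libraries 1 to 3 at 400 ppm, and at 650 ppm 12.5 to 15.9 CPM in SI-12 roots and 0.958 to 2.6 CPM in SI-9 roots. The log2 changes were 2.88 (SE 0.86, adjusted p = 0.0169) and 3.13 (SE 0.87, adjusted p = 0.0191). Without SI-9 library 2 the rise at 400 ppm was at least 169-fold. The call at 400 ppm was lost without SI-9 library 1 (adjusted p = 0.0611). That at 650 ppm was lost without SI-9 library 1 (0.0709), SI-9 library 2 (0.0775) or SI-12 library 3 (0.0522). SI-12 roots were above SI-9 and control roots at both CO2 levels.

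Eucgr.C00288.1 had 24.6, 26.9 and 36.9 CPM in SI-12 roots at 400 ppm and 0, 13.9 and 0.218 CPM in SI-9 libraries 1 to 3. At 650 ppm it had 22 to 29.7 CPM in SI-12 roots and 1.97 to 2.92 CPM in SI-9 roots. The log2 changes were 2.57 (SE 0.77, adjusted p = 0.0172) and 3.38 (SE 0.79, adjusted p = 0.006). At 400 ppm the change was 7.47 without SI-9 library 2, and the call was lost without SI-9 library 1 (adjusted p = 0.0568), SI-9 library 3 (0.0569) or SI-12 library 3 (0.0525). SI-12 roots again exceeded the control roots, which had 4.21 to 5.87 CPM at 400 ppm. The log2 change within series was 2.45, with an adjusted p of 0.0673.

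Of the lower genes, Eucgr.E00615.1 had 16.5, 7.81 and 13.4 CPM in SI-9 libraries 1 to 3 and 0.392 to 0.856 CPM in SI-12 roots, a log2 change of -4.22 (SE 0.83, adjusted p = 0.000806). The controls at 400 ppm had 14.9 to 16.6 CPM, so the SI-12 roots were the low group at that CO2 level. At 650 ppm SI-9 libraries 1 and 2 had 32.1 and 31.5 CPM and library 3 had 0.569 CPM, just above the 0.249 to 0.506 CPM of SI-12 roots. The log2 change there was -5.74 (SE 0.87, adjusted p = 0.000127), and it rests on SI-9 libraries 1 and 2. The controls at 650 ppm had 0 to 0.141 CPM, below the SI-12 roots, so there SI-9 libraries 1 and 2 stood apart as high.

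Eucgr.C01415.1 had 44.1, 21.2 and 44.2 CPM in SI-9 libraries 1 to 3 and 0 to 0.4 CPM in SI-12 roots, a log2 change of -7.94 (SE 0.76, adjusted p = 3.82e-07). At 650 ppm the levels were 11.2 to 12.1 CPM in SI-9 roots and 0.91 to 1.15 CPM in SI-12 roots, a log2 change of -3.53. Roots without fungus at 400 ppm had 4.91 to 22.9 CPM, which is above SI-12 roots and overlaps SI-9 library 2. The difference was larger at 400 ppm by the interaction test (adjusted p = 0.00241).

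Genes that met the conditions in opposite directions, with an interaction past the threshold, numbered 683, of which 370 rose and 313 fell with SI-12 at 400 ppm. Eucgr.G00955.1 had 30.5, 27.2 and 26.8 CPM in SI-12 roots and 0.883, 12.8 and 0.582 CPM in SI-9 libraries 1 to 3 at 400 ppm, a log2 change of 2.47 (SE 0.55, adjusted p = 0.00234), and of 5.38 without library 2. At 650 ppm SI-12 roots had 1.85 to 2.57 CPM and SI-9 roots 18.6 to 27.8 CPM, a log2 change of -3.52 (SE 0.58, adjusted p = 0.000302). The controls at 400 ppm had 37.4 to 63.2 CPM, above both strains, so this gene was low in SI-9 roots at 400 ppm and low in SI-12 roots at 650 ppm.

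Eucgr.B03335.1 had 309, 247 and 280 CPM in SI-12 roots and 7.28, 132 and 5.46 CPM in SI-9 libraries 1 to 3 at 400 ppm, a log2 change of 2.50 (SE 0.73, adjusted p = 0.0143), and of 5.51 without library 2. The call was lost without SI-9 library 1 (adjusted p = 0.0635) or 3 (0.0543). At 650 ppm it had 6.38 to 9.25 CPM in SI-12 roots and 31.1, 30.6 and 125 CPM in SI-9 libraries 1 to 3, a log2 change of -2.96 (SE 0.78, adjusted p = 0.013). This call was lost without SI-9 library 3, with a log2 change of -1.95 (adjusted p = 0.0809), or SI-12 library 2 (0.0597). The controls at 400 ppm had 29.5 to 33.8 CPM, between the SI-12 libraries and SI-9 libraries 1 and 3. Within series the log2 change at 400 ppm had an adjusted p of 0.062.

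Eucgr.E00779.1 reversed the other way. It had 26.5, 18.1 and 28.7 CPM in SI-9 libraries 1 to 3 and 0.571, 0.801 and 1.7 CPM in SI-12 roots at 400 ppm, a log2 change of -4.50 (SE 0.46, adjusted p = 7.05e-07). At 650 ppm it had 31.8 to 38.9 CPM in SI-12 roots and 0.109 to 1.22 CPM in SI-9 roots, a log2 change of 5.92 (SE 0.47, adjusted p = 3.86e-08). Control roots had 0.148 to 0.529 CPM at 400 ppm and 27.1 to 29 CPM at 650 ppm. The transcript was thus high in SI-9 roots at 400 ppm, in SI-12 roots at 650 ppm and in control roots at 650 ppm, and low in the other groups.

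Eucgr.F04172.1 had 31.1, 18.5 and 29.4 CPM in SI-9 libraries 1 to 3 and 0.0952, 0.3 and 0.196 CPM in SI-12 roots at 400 ppm, a log2 change of -7.02 (SE 1.63, adjusted p = 0.00317). At 650 ppm it was the SI-9 roots that were at 0 to 0.109 CPM, and the SI-12 roots had 8.13 to 12.9 CPM. At 400 ppm the controls of the SI-9 number series had 22.8 to 23.5 CPM and those of the SI-12 series 0.0949 to 0.223 CPM. Each strain therefore had the level of the controls of its own series, and the within-series log2 change was 0.10 with an SE of 0.64 (adjusted p = 0.932).

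All but 4 of these 16 genes were also called at 400 ppm within series in the direction of the direct call. The exceptions were Eucgr.L02630.1, Eucgr.C00288.1, Eucgr.B03335.1 and Eucgr.F04172.1, of which the first 3 kept their sign with adjusted p-values of 0.062 to 0.0844. Of all genes called directly, 52.4% were called within series in the same direction. The 16 genes were chosen for differences between the same SI-9 and SI-12 libraries, so their count describes that choice.

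With near-identical libraries summed into sets, each taken as 1 replicate, SI-12 roots at 400 ppm are 1 set and SI-9 roots 2 sets, or 1 set without library 2. That test borrows its spread from the other groups. With edgeR it called 0 genes with all 6 libraries (3101 at an unadjusted p under 0.05) and 2 without library 2 (4101 at an unadjusted p under 0.05), and DESeq2 on the same sets called 806 and 1814. For the within-series comparison the sets gave 2 calls with edgeR (2229 at an unadjusted p under 0.05) and 544 with DESeq2. Leaving out SI-9 library 1 or 3 in place of library 2 lowered the calls with single libraries to 5026 and 4484. When library 2 was out already, leaving out library 1 or 3 as well gave 5943 and 5563 calls, against 8950.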

How the data were processed

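For every gene the deposited tables hold a length, 2 read counts (unique and total) and an RPKM value. Per the file headers of a pair of control libraries, read pairs were trimmed before counting by the authors; the sources used here name no aligner, genome build or strand setting. The deposited RPKM equalled the one recomputed from total reads and library size for all 36376 genes within 1% and was not used further. Every result was computed from the deposited counts and gene lengths.

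Total reads of 23 libraries entered 1 fit with a mean per group (edgeR 4.0.16 quasi-likelihood test, limma 3.58.1, R 4.3.3, 17 residual degrees of freedom, TMM, filterByExpr, Benjamini-Hochberg at 0.05, 2-sided). Without SI-9 library 2 the fit held 16 residual degrees of freedom. The within-series fit, with a mean per number series for control roots at 400 ppm, held 16 as well. CPM values are scaled by the TMM factors of the fit with all libraries. The script was tested on simulated data. Standard errors (SE) follow from the log2 change and its test statistic. DESeq2 1.42.0 was the alternative tool, and matplotlib 3.10.9 drew the figures. Groups come from the sample titles, and number series from the deposited names.

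Samples, comparisons and rules were chosen with earlier results of these data known. The rule for named genes took, among genes that met the conditions given in the report, the 2 highest and the 2 lowest by log2 change with all 6 libraries and by RPKM difference without library 2. For both CO2 levels it took those with the largest smaller log2 change, 2 in each direction, for equal and for opposite directions. Gene lists by description were planned and not applied, as 0 IDs matched the reference table (assembly ASM1654582v1). Other settings tried were scaling factors, filters, unique reads, a 2-fold minimum, blocks for replicate number and number series, fits of the compared groups only, summed sets and single libraries left out.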

Additional observations from a re-analysis of the deposited data

Results flagged for a closer look

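The strain difference at 400 ppm differed from that at 650 ppm by a test of the interaction for 7520 genes in all, 27.5% of those tested. It did so for 10 of the 16 named genes, a count that describes their choice. The genes of opposite directions had to pass this test, and the others were named for strain differences that enter it. As the log2 change at 400 ppm minus that at 650 ppm, the values were 2.72 for Eucgr.F02872.1, -6.70 for Eucgr.B01584.1, -2.99 for Eucgr.L02071.1 and 0.59 for Eucgr.B02368.1 among the abundant transcripts. Eucgr.C01415.1, lower in SI-12 roots at both CO2 levels, had -4.41. For the genes chosen for opposite directions, whose values describe that choice, they were 5.45 for Eucgr.B03335.1, 5.99 for Eucgr.G00955.1, -14.43 for Eucgr.F04172.1 and -10.42 for Eucgr.E00779.1. Eucgr.L00601.1 had -12.31, a fitted value that depends on the prior count because SI-12 roots at 400 ppm had no reads of it. Among the abundant transcripts, the strain difference at 650 ppm was called in the opposite direction for Eucgr.F02872.1 (log2 change -1.65, adjusted p = 0.0014). The same held for Eucgr.B01584.1 (3.89, adjusted p = 0.000575) and Eucgr.L02071.1 (0.90, adjusted p = 0.000149). Eucgr.B02368.1 was not called there (-0.09, adjusted p = 0.585).

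Of the genes named for their difference in abundance, Eucgr.B01584.1 was the most variable at 650 ppm. It had 40401, 77851 and 183443 CPM in the SI-12 libraries and 2440, 2294 and 15659 CPM in the SI-9 libraries.

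Of 32 control groups of named genes examined for a library far from the others, 1 had such a library. Eucgr.E00779.1 reached 0.529 CPM, from 14 reads, in control library 2 at 400 ppm, against 0.148 to 0.255 CPM in the other 5. By chance about 1 group in 20 has one.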

How the results depend on the processing

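Counts of called genes are given in the order strains at 400 ppm, the same without SI-9 library 2, strains at 650 ppm, interaction with CO2, and strains within number series, whose values were 7668, 8950, 3981, 7520 and 7551. A 2-fold minimum gave 853, 2066, 633, 2069 and 1889. Sets as replicates gave 0, 2, 0, 0 and 2 with edgeR, with 3101, 4101, 2241, 3644 and 2229 genes at an unadjusted p under 0.05, and 806, 1814, 568, 1134 and 544 with DESeq2. Single libraries left out gave 4484 to 8950, 5563 to 7831, 2527 to 4507, 5702 to 8583 and 5919 to 8718; where an arm then held 1 library, it was assumed to vary like the other groups. A replicate block gave 7638, 8635, 3852, 7371 and 3867 calls. For the last count the block overlaps with the number series. Replicate numbers 4 to 6 occur only in control roots, and at 400 ppm they are the controls of the second series. The part of this overlap in the lower count was not tested. Deviations of same-numbered SI-9 and SI-12 libraries from their group means correlated by -0.003 to 0.003, so no pairing by number was seen. SI-9 library 2, which stood apart from libraries 1 and 3, enters the SI-9 mean, so these values cannot exclude a pairing. Other scaling factors, filters, unique reads and DESeq2 kept these counts within 1.5 times, as did fits of the compared groups only and a number series block, which were run for the first 3 counts. In these last settings the genes called were less stable than the counts. With the number series block, 4811 of the 7668, 6390 of the 8950 and 2820 of the 3981 genes kept call and direction. With the compared groups only, 5957, 8107 and 2548 did. For named genes, 691 of 792 recomputed values kept direction and call, 101 lost the call and 0 reversed; 65 of the losses came with sets and 11 with the 2-fold minimum. The position of SI-9 library 2 was 0.460 on the linear scale, and, with settings chosen after seeing the data, 0.475 and 0.472 on a log2 scale with 0.25 and 1 CPM added (0.598 for genes higher and 0.332 for genes lower in SI-12 roots with 1 CPM), 0.459 for genes with at least 90% unique reads and 0.452 at 10 CPM or more. Where the text gives no other reason, the cause of a changed count was not tested.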

Other observations

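The 10 most abundant genes took 4.88%, 4.52% and 5.39% of the gene reads in SI-9 libraries 1 to 3 and 3.28%, 2.93% and 3.13% in the SI-12 libraries, against 2.81% to 3.05% in the control libraries at 400 ppm. Eucgr.B01584.1 alone had 106322, 205864 and 409048 reads in the SI-9 libraries, of totals of 4497662, 10484491 and 13867134, so much of the higher share in SI-9 roots is the reads of this gene. SI-9 library 2 had reads of 29176 genes, more than SI-9 library 3 with 28783 and each SI-12 library with 28059 to 28800. Of these, SI-9 library 3 and SI-12 library 3 were sequenced more deeply than SI-9 library 2, and SI-12 libraries 1 and 2 less deeply.

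The direction of the strain difference at 650 ppm, in the whole list called at 400 ppm, was the same for 36.4% of genes, whether or not these were called at 650 ppm. Without SI-9 library 2 the share was 36.6%. Genes with under 90% unique reads were called about as often as the others at 400 ppm, in 26.6% against 28.5% of those tested, and their counts are uncertain.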
